A study of Capra hircus with 12 samples.

Results

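The comparison set 4 RNA sequencing libraries of mammary gland given a high dose of glucose against 4 given a low dose. These were 8 of the 12 libraries of the study, and the other 4 were labelled middle dose. The groups were chosen from the treatment label alone. All 12 libraries came from biopsied mammary tissue of female dairy goats in lactation, so lactation and the infusion itself were common to both groups. No source used here gives the doses as numbers, the strain and age of the goats, or the time from infusion to biopsy, and an uninfused gland was not analysed here. Whether each library is a different goat is also unstated, and p-values therefore cover only library-to-library spread, which could be technical.

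Glucose is the precursor of lactose, the sugar that draws water into milk, and the gland draws it from the blood. The secretory epithelium takes glucose up through transporters such as SLC2A1, converts part of it to UDP-galactose, and joins this to glucose in the Golgi by lactose synthase, which is B4GALT1 bound to the whey protein alpha-lactalbumin (LALBA). Milk proteins use the same route: they enter the endoplasmic reticulum (ER), are glycosylated and folded there, and travel in coated vesicles to the Golgi. A bulk biopsy also holds myoepithelium, stroma, vessels and resident immune cells. In such tissue, fewer cells of a type and less RNA per cell cannot be told apart.

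Total counts were 10307494 to 12716883 at the high dose and 10099557 to 11464465 at the low dose, over the 15810 genes listed for all 12 libraries. Expression is given as CPM (counts scaled to a common library size) after TMM scaling for library composition, at which 1 CPM was 7.77 reads in high-dose replicate 2 and 17.8 reads in high-dose replicate 1. The 9 milk protein genes took 7.48%, 42.1%, 8.83% and 21.3% of the counts in high-dose replicates 1 to 4. They took 2.61%, 2.18%, 12.3% and 13.7% in the low-dose libraries. The 2 ranges overlapped, and the log2 shares differed by 1.49 with an exact permutation p of 0.2 (two-sided, adjusted p = 0.229 over 3 library measures; 0.0286 is the smallest p that 4 against 4 can give). High-dose replicate 1 stood apart from its group: over all genes its mean Spearman correlation was 0.961 with the 4 low-dose libraries and 0.934 with the other 3 high-dose libraries. High-dose replicates 1 and 4 and low-dose replicate 3 came as tables of 16030 genes, and the other 5 libraries of the comparison as tables of 15991 genes. Values within each table layout are given for some results only, and others also differed by layout. High minus low of the milk protein list mean was 2.94 in the 15991-gene layout and -0.35 in the other. That other layout held 1 low-dose library. The same values were 1.11 and 0.03 for triglyceride synthesis and globule secretion, and 0.79 and -0.10 for amino acid transporters. For SLC2A1 they were 1.99 and 0.05.

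No gene passed the adjusted threshold of 0.05 in the main test, edgeR's quasi-likelihood F test over 13624 genes (0.0% called). The smallest adjusted p was 0.386, a value shared by all 25 leading genes and by others. At an unadjusted p under 0.05 there were 990 genes higher at the high dose (7.27%) and 570 lower (4.18%). Without high-dose replicate 1 these became 1553 and 1203, without high-dose replicate 2 they were 557 and 346, without high-dose replicate 3 they were 504 and 330, and without low-dose replicate 1 they were 512 and 379. DESeq2's Wald test called 55 genes, 41 higher (0.301% of the genes) and 14 lower (0.103%), while limma voom with quality weights called 0 and had 2641 genes at an unadjusted p under 0.05. When high-dose replicate 1 was left out, edgeR called 19 genes, 18 higher (0.131% of the 13715 tested) and 1 lower (0.00729%), and 14 of them were also among the DESeq2 calls. That replicate was the high-dose library most like the low dose, so p-values of the fit without it favour separation. Leaving out any other single high- or low-dose library gave 0 calls. In the libraries of the 15991-gene layout alone, which also lack high-dose replicate 1, edgeR called 8 of 13822 (0.0579%), all higher. Every adjusted p under 0.05 given below for a gene therefore comes from DESeq2 or from a fit on fewer libraries, not from the main test.

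A second description needs no model: in 307 genes all 4 high-dose libraries lay above all 4 low-dose libraries (2.25% of the genes tested), and in 337 genes they lay below (2.47%). This split followed the scaling. By library size alone, with no correction for composition, it was 45 above and 621 below, and the median log2 difference over all genes moved by -0.29 from its TMM value of -0.03. The directions given here are relative to the TMM scale. List medians given by library size alone stand beside an all-gene median of -0.32 on that scale. The shares of 2.25% and 2.47% are the background for each TMM-scaled count of list members below. For counts by library size alone, the background is the 45 and 621 of 13624 genes on that scale.

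ARG2, the mitochondrial arginase that splits arginine into ornithine and urea, showed one of the widest separations. It measured 4.45, 98.01, 62.3 and 44.2 CPM in high-dose replicates 1 to 4 and 3.62, 3.01, 3.71 and 3.67 CPM in the low-dose libraries. The low-dose libraries lay close together, high-dose replicate 1 lay just above them, and the other 3 were far above all of them. The log2 difference, high minus low, was 3.89 ± 0.70 (SE, 4 libraries a group), with an adjusted p of 0.386 in the main edgeR test. The DESeq2 adjusted p was 2.7e-06, and the edgeR adjusted p without high-dose replicate 1 was 0.00241. Middle-dose libraries measured 14.03, 8.50, 4.39 and 10.2 CPM, the third of them between the groups and the other 3 inside the high-dose range. The tables place the gene on chromosome 10, from 75540186 to 75580295, in a goat build that they do not name.

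Downstream of ornithine, in polyamine synthesis, spermidine synthase (SRM) also had groups that did not overlap. Its values were 13.2, 24.2, 43.5 and 16.2 CPM at the high dose and 8.49, 12.7, 10.1 and 10.8 CPM at the low dose, with a log2 difference of 1.21 ± 0.34. ALDH18A1, which starts proline synthesis from glutamate, overlapped by 1 pair of libraries (log2 difference 0.86 ± 0.23). In the list of arginine, proline and polyamine genes 13 of 22 were higher, ARG2 and SRM lay wholly above and none wholly below, and the median was 0.14, or -0.16 by library size alone. The list was built around ARG2, and without it 12 of 21 were higher with a median of 0.12. Arginine supply enzymes ASS1 and ASL had log2 differences of -0.08 ± 0.25 and -0.16 ± 0.33.

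FZD5, a Frizzled receptor for Wnt ligands, had the smallest p of the comparison. It measured 2.31, 28.3, 9.32 and 7.88 CPM at the high dose and 0.890, 0.839, 1.12 and 1.15 CPM at the low dose, which stood for 41, 220, 124 and 107 reads against 15, 12, 16 and 16 reads. Every high-dose library exceeded every low-dose library, and high-dose replicate 2 was the highest by a wide margin. The log2 difference was 3.56 ± 0.64 (DESeq2 adjusted p = 2.9e-05). ZNRF3, a membrane ubiquitin ligase that removes Frizzled receptors from the cell surface, also lay wholly above, with 4.05, 13.4, 33.5 and 6.63 CPM against 2.79, 3.22, 1.82 and 3.45 CPM and a log2 difference of 2.35 ± 0.54 (DESeq2 adjusted p = 0.00865). LRP6, the Wnt co-receptor, overlapped through high-dose replicate 1 (log2 difference 0.54 ± 0.18).

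The rest of the Wnt list did not share this direction. Without FZD5 and ZNRF3, 7 of 30 tested members were higher, WNT5A lay wholly above and LEF1 wholly below, and the median was -0.21. With both genes 9 of 32 were higher and the median was -0.20. The common Wnt target AXIN2 had a log2 difference of -0.19 ± 0.81, and the transcription factor LEF1, which T cells also express, had -0.70 ± 0.31 with groups that did not overlap. The median of the whole list was -0.63 in the 5 libraries of the 15991-gene layout. High minus low of the list mean was -0.46 in that layout and 0.50 in the other, where high-dose replicates 1 and 4 faced 1 low-dose library.

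**Figure D1:**
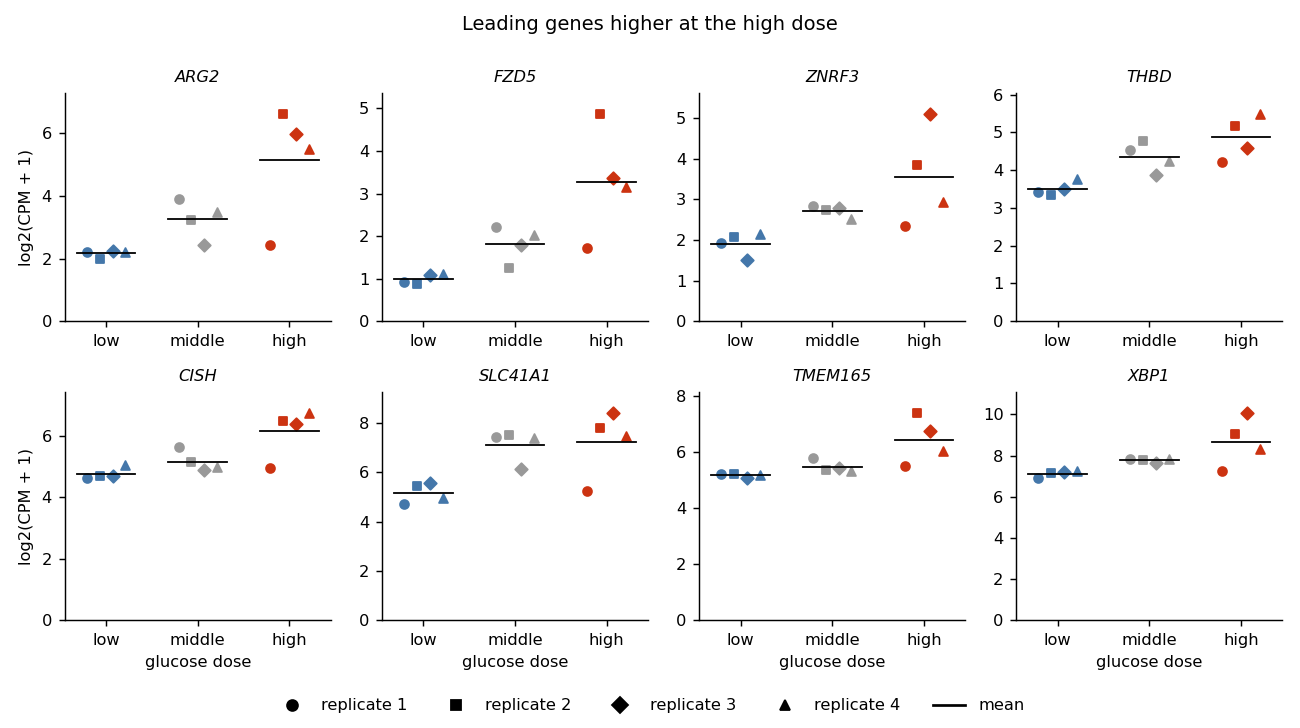
Expression of 8 of the leading higher genes in each library, as log2(CPM + 1) on the vertical axis, by glucose dose. Symbols mark replicate numbers, colours mark doses, and bars mark the mean of 4 libraries; in all 8 panels high-dose replicate 1 (circle) is the lowest high-dose library, as for ARG2 at 4.45 CPM against 44.2 to 98.01 CPM in the others.

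Most of the other leading genes had the same lowest library: high-dose replicate 1 was the lowest high-dose library in 14 of the 15 genes with the smallest p among those higher, and 10 of the 15 had groups that did not overlap. DESeq2 called 14 of the 15, and gave LRRC23 no adjusted p. The 15 were chosen by p in these same libraries, so both counts follow largely from that choice. Over all genes 2.25% lay wholly above and DESeq2 called 0.301% higher. Without high-dose replicate 1 edgeR called 10 of the 15.

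Among these were 2 genes that prolactin induces through STAT5 in many tissues. CISH, a feedback inhibitor of cytokine receptors, measured 30.1, 87.8, 81.7 and 105 CPM at the high dose and 23.4, 24.9, 24.5 and 31.8 CPM at the low dose. PIM1, a survival kinase, measured 25.8, 122, 269 and 146 CPM and 21.8, 14.96, 30.3 and 28.9 CPM. In both, high-dose replicate 1 fell inside the low-dose range and the other 3 lay above it. The log2 differences were 1.54 ± 0.32 for CISH (DESeq2 adjusted p = 0.00352) and 2.55 ± 0.58 for PIM1 (DESeq2 adjusted p = 0.00256). The suppressors of cytokine signalling SOCS6 and SOCS2 had log2 differences of 1.41 ± 0.39 and 0.78 ± 0.28, and overlapped through the same library. Over the prolactin, cytokine and STAT5 list 14 of 23 genes were higher, no member had groups that did not overlap, and the median was 0.25. The list was built around CISH, and without it 13 of 22 were higher and the median was 0.23. The receptor PRLR itself had 0.73 ± 0.27, and the secretory-lineage factor ELF5 had 1.00 ± 0.40.

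THBD, the thrombin receptor thrombomodulin of vessel walls, measured 17.6, 34.8, 23.1 and 44.02 CPM at the high dose and 9.79, 9.16, 10.3 and 12.7 CPM at the low dose, with no overlap. Its log2 difference was 1.51 ± 0.29 (DESeq2 adjusted p = 0.00139). Within table layouts it was 1.43 in the layout listing fewer genes and 1.42 in the other, which held 1 low-dose library. For the other higher genes with the smallest p described here, the second value was further below the first. The values were 4.45 and 1.88 for ARG2, 3.88 and 1.79 for FZD5, and 1.67 and 1.20 for CISH. They were 3.09 and 1.02 for PIM1, 3.10 and 0.78 for SLC41A1, 2.47 and 0.60 for XBP1 and 1.53 and 0.38 for MOGS. The endothelial list did not share the separation of THBD. Without THBD 10 of 17 members were higher, 0 had groups that did not overlap, and the median was 0.12. With THBD 11 of 18 were higher and the median was 0.14, or -0.18 by library size alone. The 5 defining endothelial markers summed to 516 to 632 CPM at the high dose and 454 to 681 CPM at the low dose.

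MFSD2A, a transporter of lysophosphatidylcholine carrying long polyunsaturated fatty acids, measured 11.2, 55.2, 129.5 and 23.9 CPM against 3.92, 14.6, 4.13 and 3.31 CPM, and low-dose replicate 2 exceeded high-dose replicate 1. FAM46A, a cytoplasmic poly(A) polymerase, measured 66.3, 531, 400.1 and 225 CPM against 54.96, 65.4, 65.5 and 72.7 CPM, with high-dose replicate 1 inside the low-dose range. FAM83F lay wholly above, with a log2 difference of 1.56 ± 0.35. UMPS, which completes the synthesis of UMP, the parent of the UDP-sugars, was among the DESeq2 calls (log2 difference 1.71 ± 0.43, adjusted p = 0.025). So was BDH1, a mitochondrial enzyme of ketone body metabolism, whose groups did not overlap (21.6, 244, 31.9 and 81.8 CPM against 7.24, 7.62, 16.9 and 16.03 CPM, log2 difference 2.98 ± 0.79). With milk protein share as a term of the fit the difference of BDH1 was 1.43.

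An L-amino-acid oxidase-like gene (LOC102183203) had a still wider gap in 3 libraries. Enzymes of this family make hydrogen peroxide from amino acids and occur in milk. It measured 0.788, 122, 159 and 119 CPM at the high dose and 0.534, 1.19, 1.75 and 1.078 CPM at the low dose. High-dose replicate 1 lay within the low-dose range and the other 3 were far above it. The log2 difference was 6.46 ± 1.39 (DESeq2 adjusted p = 6.8e-05). The main test did not call the gene, and edgeR called it without high-dose replicate 1 (adjusted p = 0.0387).

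Ion carriers of the secretory cell were among the leaders. SLC41A1, a magnesium transporter, measured 36.3, 223, 337 and 176 CPM at the high dose and 25.3, 42.3, 46.6 and 29.98 CPM at the low dose. TMEM165, a Golgi membrane protein that supplies manganese to glycosyltransferases, measured 43.7, 166, 105 and 64.7 CPM and 36.4, 36.3, 32.6 and 35.2 CPM. TMEM165 had no overlap between groups, while for SLC41A1 high-dose replicate 1 lay inside the low-dose range. Their log2 differences were 2.42 ± 0.54 and 1.44 ± 0.32, with DESeq2 adjusted p-values of 0.00209 and 0.0124. SLC30A4, which loads zinc into milk, had 2.30 ± 0.58 (DESeq2 adjusted p = 0.0135), and the sodium-phosphate cotransporter SLC34A2 had 4.50 ± 1.34 (DESeq2 adjusted p = 0.0369), with high-dose replicate 1 inside the low-dose range for both. SLC34A2 measured 851, 425 and 244 CPM in high-dose replicates 2 to 4, and its difference was 2.84 with milk protein share as a term. ORAI2, a subunit of store-operated calcium channels, was lower instead, with 10.9, 5.92, 7.67 and 6.85 CPM against 25.9, 12.7, 16.4 and 15.5 CPM and a log2 difference of -1.16 ± 0.27. Over the whole list of magnesium, calcium, zinc and phosphate carriers 26 of 39 were higher, ORAI2 was the 1 member wholly below, none lay wholly above, and the median was 0.14, or -0.15 by library size alone. Without SLC41A1, around which the list was built, 25 of 38 were higher.

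The machinery that carries secreted proteins through the ER and Golgi was higher at the high dose across nearly all its members. In 5 lists together 130 of 140 tested genes had a log2 difference above 0 (92.9%, against 47.0% of all genes), the median was 0.46, 21 genes lay wholly above (15%, against 2.25% of all genes) and 0 wholly below. Earlier results had placed MOGS and XBP1 in these lists; without them 128 of 138 were higher and 19 lay wholly above. None passed the adjusted edgeR threshold, and 69 had an unadjusted p under 0.05.

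The first step is entry into the ER. SEC61A1, the channel itself, measured 116, 177, 184 and 121 CPM at the high dose and 76.3, 88.99, 103 and 84.6 CPM at the low dose, with no overlap and a log2 difference of 0.76 ± 0.20. SRP68, a subunit of the signal recognition particle, also lay wholly above (log2 difference 0.57 ± 0.18), while SSR1, a subunit of the translocon-associated complex, overlapped through high-dose replicate 1 (log2 difference 0.76 ± 0.24). In this list 23 of 24 genes were higher, 3 lay wholly above, and the median was 0.50. RRBP1, which anchors ribosomes on the ER, measured 407, 754, 717 and 575 CPM against 255, 311, 278 and 381 CPM, and DESeq2 called it with an adjusted p of 0.0454.

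N-glycan addition and trimming followed. MOGS, the glucosidase that makes the first cut in the new glycan, measured 34.3, 81.7, 83.97 and 46.97 CPM at the high dose and 30.9, 28.6, 30.8 and 26.2 CPM at the low dose. The groups did not overlap, and the difference of 1.08 ± 0.24 was called by DESeq2 (adjusted p = 0.0188) and by edgeR without high-dose replicate 1 (adjusted p = 0.0387). OSTC, a subunit of oligosaccharyltransferase, had 0.62 ± 0.17, and DPM2, which stabilises the synthase of dolichol-phosphate mannose, had 0.81 ± 0.24. Of 36 members 29 were higher, 5 lay wholly above, and the median was 0.35, or 0.02 by library size alone.

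Among ER chaperones, HSPA5 (BiP), the main Hsp70 of the ER, measured 615, 802, 1467 and 473 CPM at the high dose and 404, 384, 387 and 442 CPM at the low dose. The groups did not overlap, although high-dose replicate 4 was close to the highest low-dose library. The log2 difference was 1.05 ± 0.31. The ER-resident CRELD2 had 1.17 ± 0.33 and the disulfide isomerase PDIA4 had 0.65 ± 0.20. For this list 23 of 25 were higher, 5 wholly above, with a median of 0.47.

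XBP1, the transcription factor that the unfolded protein sensor IRE1 activates by splicing, measured 153, 528, 1077 and 316 CPM at the high dose and 118, 140.2, 145 and 152 CPM at the low dose, with no overlap. The counts do not separate the spliced from the unspliced form. Its log2 difference was 1.90 ± 0.44 (DESeq2 adjusted p = 0.0076; edgeR adjusted p = 0.0387 without high-dose replicate 1). CREB3L1, an ER-anchored transcription factor, lay wholly above too (log2 difference 0.98 ± 0.35), and EDEM2, which marks misfolded glycoproteins for disposal, had 0.50 ± 0.18. All 23 tested members of the sensor and degradation list were higher, with a median of 0.37 and 2 wholly above.

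The coats and cargo receptors between ER and Golgi had 32 of 32 tested members higher, 6 wholly above and a median of 0.50. SURF4, a cargo receptor, measured 98.9, 137, 173 and 105 CPM against 61.8, 80.5, 97.8 and 83.1 CPM. KDELR2, which returns escaped ER proteins, measured 161, 186, 243 and 134 CPM against 107, 124, 127 and 126 CPM. COPG1, a subunit of the COPI coat, measured 130.3, 189, 172 and 140.4 CPM against 105, 122, 111 and 108 CPM. In all 3 the lowest high-dose library was just above the highest low-dose library. Their log2 differences were 0.67 ± 0.20, 0.58 ± 0.17 and 0.50 ± 0.16. The GTPase ARF1, which recruits that coat, was called by DESeq2 (log2 difference 0.57 ± 0.14, adjusted p = 0.0456).

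The size of the secretory difference came mostly from 2 libraries. The mean of the vesicle list, relative to the low-dose mean, was 0.13, 0.68, 0.80 and 0.27 (log2) in high-dose replicates 1 to 4, against -0.19, 0.01, 0.10 and 0.08 in the low-dose libraries. High-dose replicate 2 or 3 was the highest of its group in 128 of the 140 genes, and replicates 1 and 4 were the lowest in 72 and 49. These 2 pairs of libraries are also the 2 table layouts. Within the 15991-gene layout, high minus low of the list means was 0.88 for ER entry, 0.51 for N-glycans, 0.84 for folding, 0.73 for sensors and degradation and 0.78 for vesicles. Within the other layout, with 2 high-dose libraries and 1 low-dose library, the same values were 0.00, 0.03, 0.18, 0.02 and 0.10. With layout as a term of the fit the medians were 0.54, 0.37, 0.51, 0.43 and 0.51, and with milk protein share as a term they were 0.37, 0.27, 0.47, 0.32 and 0.39. By library size alone the genes wholly above numbered 2, 1, 0, 2 and 1 in these lists, and 3 N-glycan genes lay wholly below.

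**Figure D2:**
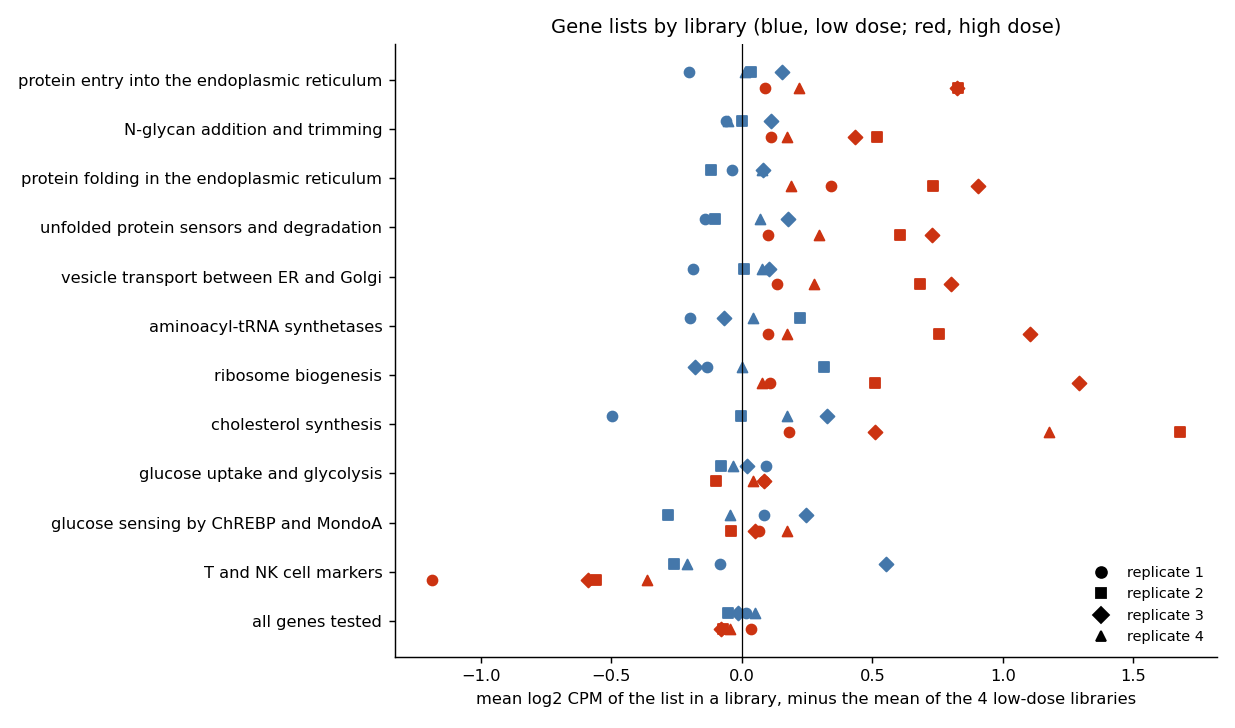
Mean log2 CPM of 12 gene sets in each library, minus the mean of the 4 low-dose libraries (horizontal axis), with low-dose libraries in blue and high-dose libraries in red; symbols mark replicate numbers. In the secretory lists high-dose replicates 2 and 3 lie far to the right and replicates 1 and 4 near the low-dose libraries, the glycolysis list shows no separation, and in the T and NK cell list all 4 high-dose libraries lie to the left of all low-dose libraries.

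Genes that supply translation were also mostly higher. For aminoacyl-tRNA synthetases, which charge tRNAs with amino acids, 19 of 20 were higher, 3 lay wholly above (against 2.25% of all genes) and the median was 0.56. By library size alone 1 lay wholly above. The threonine enzyme TARS measured 119, 386, 501 and 189 CPM at the high dose and 95.4, 139, 119.7 and 119 CPM at the low dose, and overlapped only where high-dose replicate 1 fell among the low-dose values. The histidine enzyme HARS lay wholly above (log2 difference 0.61 ± 0.21), and the tyrosine enzyme YARS overlapped (log2 difference 1.29 ± 0.42). All 35 tested ribosome biogenesis genes were higher, with a median of 0.52, but only RRP1, a factor for large-subunit assembly, lay wholly above (16.7, 17.4, 22.9 and 20.1 CPM against 13.5, 14.1, 13.8 and 13.6 CPM). CIRH1A, a small-subunit assembly factor, had 0.91 ± 0.27, and NOP2, which methylates ribosomal RNA, had 0.85 ± 0.28. Within the 15991-gene layout the list means differed by 0.91 for the synthetases and 0.84 for ribosome biogenesis, and within the other layout by 0.21 and 0.27. Leaving out high-dose replicate 3 brought the ribosome biogenesis median to 0.20.

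Amino acid transporters were split: 16 of 24 were higher, with 3 wholly above and 1 wholly below (against 2.25% and 2.47% of all genes). The median was 0.26, which was -0.07 by library size alone. SLC1A5, a glutamine and neutral amino acid exchanger, measured 60.9, 252, 289.7 and 91.7 CPM at the high dose and 32.5, 49.2, 41.6 and 42.8 CPM at the low dose, with no overlap, a log2 difference of 2.06 ± 0.58 and a DESeq2 adjusted p of 0.0359. SLC43A1 and SLC1A4 were the other 2 wholly above, with log2 differences of 0.93 ± 0.30 and 1.26 ± 0.44. SLC7A5, the leucine carrier, measured 46.1, 151, 149 and 62.4 CPM and 30.8, 22.4, 34.9 and 57.2 CPM, with overlap and a log2 difference of 1.49 ± 0.68. Its partner chain SLC3A2 had -0.42 ± 0.36.

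For glucose use itself the pathway genes showed no common direction. In the list of glucose uptake and glycolysis 14 of 29 genes were higher, 0 had groups that did not overlap, and the median was -0.02, next to -0.03 for all genes. Enzymes of the main line lay near 0, among them GAPDH at -0.19 ± 0.20, ALDOA at 0.13 ± 0.18, PKM at 0.03 ± 0.21 and GPI at -0.02 ± 0.18. HK2, a hexokinase, measured 17.1, 14.4, 60.7 and 12 CPM and 13.3, 26.8, 5.18 and 13.8 CPM, and its difference of 0.82 ± 0.67 became -0.024 without high-dose replicate 3. The 12 tested genes of glucose sensing by ChREBP and MondoA had a median of 0.08 and 0 without overlap. TXNIP, the classical target of these factors, measured 695, 1033, 441 and 1827 CPM at the high dose and 1504, 611, 1570.1 and 1063 CPM at the low dose, and the ranges overlapped almost fully (log2 difference -0.25 ± 0.43).

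The 2 glycolysis-list genes with an unadjusted p under 0.05 were both membrane carriers. SLC16A1 (MCT1), which carries lactate, pyruvate and ketone bodies, measured 168, 939, 1649 and 521 CPM at the high dose and 81.5, 374, 88.9 and 207 CPM at the low dose, with a log2 difference of 2.13 ± 0.63 (DESeq2 adjusted p = 0.0505). SLC2A1 (GLUT1), the main glucose transporter of the gland, measured 32.8, 91.7, 82.6 and 62.6 CPM and 23.4, 15.3, 43.8 and 28.6 CPM. For both, high-dose replicate 1 was inside the low-dose range and the other 3 lay above it. The SLC2A1 difference was 1.28 ± 0.46, and 0.68 with milk protein share as a term. SLC2A12 (GLUT12) had -1.03 ± 0.56 and was a low-expressed gene in all 8 libraries.

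**Figure D3:**
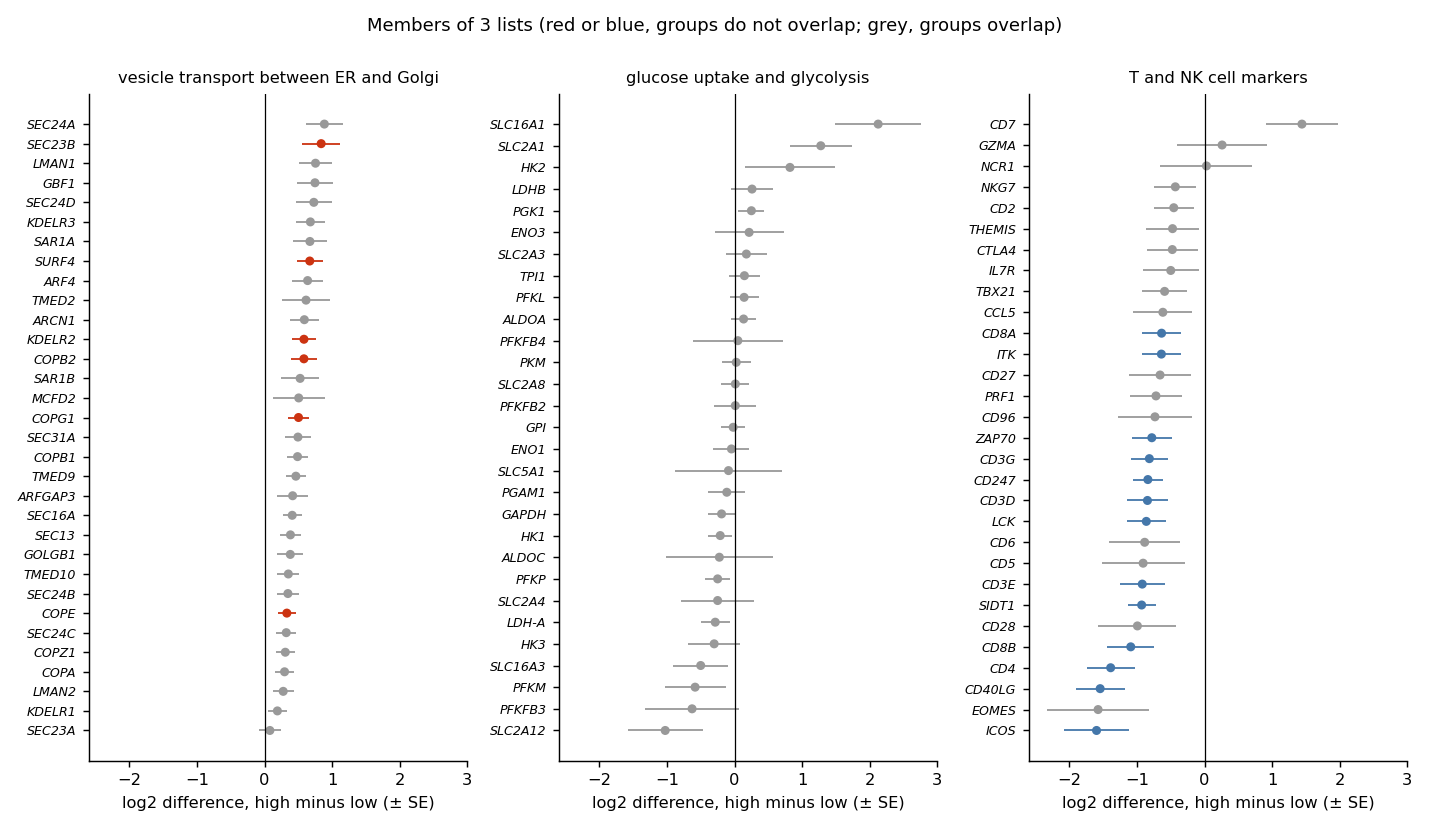
Log2 difference, high minus low, with its standard error for each tested member of 3 lists: vesicle transport between ER and Golgi (32 genes), glucose uptake and glycolysis (29) and T and NK cell markers (30). Red marks genes whose 4 high-dose libraries all lie above the 4 low-dose libraries, blue all below and grey overlapping; all 32 vesicle genes are above 0, the glycolysis genes lie on both sides and 13 T and NK genes are blue.

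The branch from glucose to nucleotide sugars and lactose leaned higher, with 21 of 29 genes and a median of 0.31 (-0.0034 by library size alone). In it 1 member lay wholly above and 1 wholly below (against 2.25% and 2.47% of all genes). B4GALT1, the galactosyltransferase of lactose synthase, measured 404, 935, 974 and 772 CPM at the high dose and 254, 478, 326 and 346 CPM at the low dose. High-dose replicate 1 was below low-dose replicate 2 and the other 3 were above all low-dose libraries. Its log2 difference was 1.14 ± 0.31 (DESeq2 adjusted p = 0.0456). SLC35A2, which brings UDP-galactose into the Golgi, had 1.39 ± 0.36 (DESeq2 adjusted p = 0.0456), and GFPT1, the entry enzyme of hexosamine synthesis, had 0.94 ± 0.25. LALBA, the partner of B4GALT1, measured 586, 27449, 1867 and 6021 CPM and 52.7, 155, 891 and 2739.6 CPM, an overlapping spread that left a log2 difference of 3.23 ± 1.5, or 0.73 with milk protein share as a term. CSN2, beta-casein, had 2.32 ± 1.27, or 0.17 with that term, and all 9 milk protein genes were higher with overlapping groups and a median of 1.49. LALBA and CSN2 are themselves counted in the milk protein share. The term therefore removes much of their own difference by construction.

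Carbon entering the mitochondria was represented by 31 tested genes for pyruvate dehydrogenase and TCA cycle enzymes. Of these 25 were higher, 3 lay wholly above (against 2.25% of all genes), 0 wholly below, and the median was 0.34. By library size alone the median was 0.01, beside -0.32 for all genes, and 0 lay wholly above. OGDH and DLST, both subunits of the oxoglutarate dehydrogenase complex, had groups that did not overlap and log2 differences of 0.55 ± 0.16 and 0.76 ± 0.25. Citrate synthase (CS) had 0.69 ± 0.20 with overlap. Of the pyruvate dehydrogenase kinases, which switch off that enzyme, PDK1 had -0.56 ± 0.26. PDK4 had -0.27 ± 0.64, a difference smaller than its standard error, and 0.00077 without high-dose replicate 1.

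In lipid synthesis the sterol genes separated most. For cholesterol synthesis 21 of 23 genes were higher, 5 lay wholly above (against 2.25% of all genes), and the median was 0.97. By library size alone 3 lay wholly above. MVD, an enzyme of the mevalonate pathway, measured 20.9, 74.6, 42.8 and 39.97 CPM at the high dose and 9.91, 23.3, 10.3 and 16.5 CPM at the low dose, a log2 difference of 1.57 ± 0.44. High-dose replicate 1 was below low-dose replicate 2, and the other 3 were above all low-dose libraries. The list's median was 0.33 with milk protein share as a term and 0.67 without high-dose replicate 2, and the list means differed by 1.20 within the 15991-gene layout and 0.35 within the other. Fatty acid synthesis and uptake had 19 of 26 higher and a median of 0.48, triglyceride synthesis and globule secretion 17 of 21 and 0.78, and in neither list did any gene lie wholly above or below. FASN, fatty acid synthase, measured 1347, 9784, 5589.8 and 5422 CPM and 1352, 2349, 1991 and 1426 CPM, with high-dose replicate 1 level with the lowest low-dose libraries (log2 difference 1.64 ± 0.56). With milk protein share as a term these 2 medians were 0.12 and 0.21.

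Among the leading genes lower at the high dose was CROT, which moves shortened fatty acids out of the peroxisome as carnitine esters. It measured 13.4, 8.24, 7.14 and 9.64 CPM at the high dose and 53.4, 23.5, 21.6 and 18.7 CPM at the low dose. Every low-dose library was above every high-dose library, and low-dose replicate 1 was far above the rest. The log2 difference was -1.60 ± 0.35 (DESeq2 adjusted p = 0.0076). The list of fatty acid oxidation, carnitine and peroxisome genes did not share the direction: 18 of 39 were higher and the median was 0.00. In it 2 lay wholly below, CROT among them, and 1 above (against 2.47% and 2.25% of all genes). Without CROT, around which the list was built, 18 of 38 were higher.

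BCAR3, an adaptor of integrin signalling, measured 9.97, 7.34, 5.79 and 7.36 CPM at the high dose, 15.6, 13.1, 11.6 and 15.3 CPM at the low dose and 13.2, 14.4, 13.7 and 15.9 CPM at the middle dose. The middle-dose values overlapped the low-dose range and lay above every high-dose value. Its log2 difference was -0.87 ± 0.19 (DESeq2 adjusted p = 0.0124). LYRM7, an assembly factor of respiratory complex III, had the same order of groups, with 19.9, 14.2, 11.9 and 13.3 CPM at the high dose, 28.7, 27.1, 19.96 and 25.95 CPM at the low dose and 22.4, 31.2, 29.5 and 22.8 CPM at the middle dose. For HPS3, a subunit of a complex in lysosome-related organelle formation, the log2 difference was -0.66 ± 0.16, for ARHGEF3, an activator of RhoA, -0.87 ± 0.22, and for ANKRD26 -1.29 ± 0.32. Of the 10 leading lower genes 9 had groups that did not overlap, 9 were called by DESeq2, and none was called by edgeR without high-dose replicate 1. The 10 were also chosen by p in these libraries, which largely fixes the first 2 counts. Over all genes 2.47% lay wholly below and DESeq2 called 0.103% lower.

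**Figure D4:**
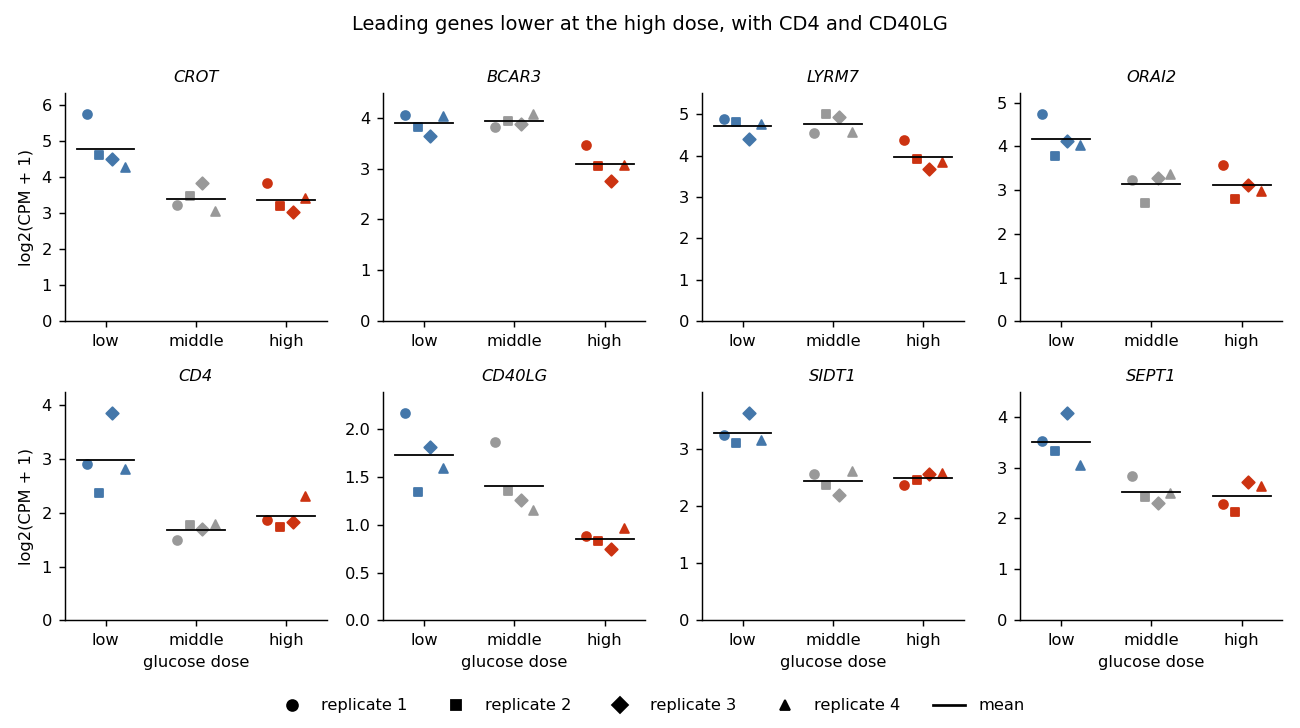
Expression of 6 leading lower genes and of the T cell genes CD4 and CD40LG in each library, as log2(CPM + 1) on the vertical axis, by glucose dose. Symbols mark replicate numbers, colours mark doses and bars the mean of 4 libraries; in all 8 panels the 4 low-dose libraries lie above the 4 high-dose libraries, and in BCAR3 the middle-dose libraries overlap the low-dose ones.

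T and NK cell markers were the one group of cell markers with many members wholly below. Of 30 tested genes 27 were lower, 13 lay wholly below (against 2.47% of all genes), 0 wholly above, and the median log2 difference was -0.76. The list includes SIDT1 because of its earlier result; without it 12 of 29 lay wholly below. CD4, the co-receptor of helper T cells, measured 2.65, 2.32, 2.56 and 3.98 CPM at the high dose and 6.53, 4.19, 13.5 and 6.04 CPM at the low dose, or 47, 18, 34 and 54 reads against 110, 60, 193 and 84 reads. CD3E, a chain of the T cell receptor complex, measured 11.4, 25.9, 24.7 and 26.2 CPM and 38.6, 36.9, 56.8 and 34.4 CPM. CD8A, the co-receptor of cytotoxic T cells, measured 6.93, 14.3, 9.85 and 14.9 CPM and 16.6, 15.7, 21.3 and 17.5 CPM. In these genes low-dose replicate 3 was the highest library of all, and no high-dose library reached any low-dose one.

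The log2 differences were -1.39 ± 0.35 for CD4, -0.92 ± 0.34 for CD3E and -0.64 ± 0.29 for CD8A. CD3D and the kinases LCK and ZAP70, which start T cell receptor signalling, lay wholly below as well, with -0.85 ± 0.31, -0.86 ± 0.29 and -0.78 ± 0.30. CD40LG, the ligand by which helper T cells activate B cells, had -1.54 ± 0.36 on 6 to 59 reads a library. DESeq2 gave CD4 and CD40LG no adjusted p, and it called SIDT1 (-0.93 ± 0.21, adjusted p = 0.0171) and the septin gene SEPT1 (-1.24 ± 0.28, adjusted p = 0.0216). CD2 and CD5, also on most T cells, overlapped (-0.46 ± 0.30 and -0.91 ± 0.61). CD7 was the 1 member higher at an unadjusted p under 0.05 (1.44 ± 0.53), and the granzyme gene GZMA had 0.26 ± 0.66.

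The whole list summed to 166, 296, 353 and 334 CPM at the high dose and 377, 367, 549 and 364 CPM at the low dose. High-dose replicate 1 was the lowest library in 21 of the 30 genes among its group, and low-dose replicate 3 the highest of its group in 24. The median was -0.60 without the first and -0.52 without the second. In the 5 libraries of the 15991-gene layout the median was -0.42, and with milk protein share as a term it was -0.88. High minus low of the list mean was -0.39 in the 15991-gene layout and -1.33 in the other. By library size alone 18 of the 30 lay wholly below.

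The macrophage and antigen presentation markers were also mostly lower, with 21 of 23 members, a median of -0.35 and none wholly below, or 5 wholly below by library size alone. Their median was -0.10 without low-dose replicate 3, the library in which the T and NK list was highest. Of the fibroblast and matrix markers 20 of 22 were lower, with a median of -0.23 and none wholly below, and the median was 0.086 without low-dose replicate 4. Neutrophil markers had 9 of 10 higher and a median of 0.56, which was 0.11 without high-dose replicate 3. The B and plasma cell list had 9 of 19 higher and 1 wholly below, the adipocyte list 4 of 9 higher and the myoepithelial list 7 of 15.

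Summed levels of the defining markers overlapped between the groups for each type given here except T and NK cells. The 7 defining T and NK markers summed to 55.8 to 105 CPM at the high dose and 125 to 201 CPM at the low dose. The 7 B and plasma cell markers summed to 209.7 to 830.5 CPM at the high dose and 113 to 588 CPM at the low dose, and the 5 tested macrophage markers to 254 to 399 CPM at the high dose and 222 to 546 CPM at the low dose. Neutrophil markers summed to 11.5 to 70.96 CPM at the high dose and 12.3 to 28.2 CPM at the low dose, fibroblast markers to 2411 to 9975 CPM at the high dose and 3212 to 19444 CPM at the low dose, adipocyte markers to 3.53 to 7.73 CPM at the high dose and 5.31 to 27.2 CPM at the low dose and myoepithelial markers to 1204 to 2187 CPM at the high dose and 1357 to 1975 CPM at the low dose. The 6 tested luminal secretory markers, most of them milk proteins, summed to 34383 to 413594 CPM at the high dose and 8479 to 76774 CPM at the low dose, so the tissue carried its defining transcripts in every library. No marker that was listed was at 0 in all 8 libraries, and the part of cell composition in any result was not tested.

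Other lists without such separation were the luminal epithelial markers (8 of 20 higher, median -0.05), tight junctions (4 of 15, -0.05), the hypoxia response (9 of 18, -0.04) and the pentose phosphate pathway (10 of 16, 0.07). The cell cycle list had 5 of 35 higher and a median of -0.21, which was 0.05 without high-dose replicate 2 and 0.02 without high-dose replicate 4. Interferon response genes had 1 of 32 higher and a median of -0.83, and -0.22 without low-dose replicate 4. In the circadian list the repressor CRY1 had 0.80 ± 0.29 and the output factor TEF -0.74 ± 0.26, both with overlap. Cytosolic heat shock genes had 18 of 22 higher and a median of 0.45, and PRKAA2, a catalytic subunit of AMPK, had 1.19 ± 0.36 within an insulin, AMPK and mTOR list whose median was 0.13 (-0.18 by library size alone).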

How the data were processed

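The authors deposited one table of raw read counts per gene for each library, as whole numbers. Total RNA went into TruSeq libraries, per the labels' protocols. Bowtie 0.12.2 and the mouse build mm8 appear in the submitters' processing notes, whereas the tables hold goat gene IDs. No source used here states the goat build, the counting method or the use of strand, so overlapping genes and near-identical families such as the MHC genes are uncertain. Tables were joined by gene ID, and 97.3% of 15810 IDs matched the RefSeq annotation of ARS1.2, used for names only. No sequences are shown.

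Genes with low counts were removed by filterByExpr (minimum count 10, minimum total 15; 2186 removed). Counts of all 12 libraries were scaled by TMM (lowest factor 0.514) and tested with edgeR 4.0.16, with dose as the only factor, the contrast high minus low, and Benjamini-Hochberg adjustment. Standard errors are the size of the log2 difference divided by the square root of F. DESeq2 1.42.0 and limma 3.58.1 were alternatives, under R 4.3.3. For high against low, the edgeR step was run on simulated data (13624 genes). Of 80 genes given a 2-fold change it called 25%, of 60 given 4-fold 83.3%, and of 60 given 8-fold 91.7%; 7 of its 132 calls were false.

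Genes named were, among those with a symbol and at least 1 log2 CPM on average, the 15 higher and 10 lower with the smallest p; up to 3 members of each list by p; 8 preset genes (CSN2, LALBA, FASN, TXNIP, HK2, SLC2A1, SLC7A5 and B4GALT1); and calls of DESeq2 or of the fit without high-dose replicate 1. Some genes that met these rules are not reported here. List members beyond these were named after their values were seen. The comparison, lists and rules were chosen with earlier results of these data known, and some lists were built around genes seen to lead (FZD5, ARG2, MOGS, XBP1, CROT, SLC41A1, THBD, CISH and SIDT1). List counts are descriptions without a test. Milk protein share as a term was added after the data had been seen, as were layout terms for list medians.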

Additional observations from a re-analysis of the deposited data

Results flagged for a closer look

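Within groups of 4, a library was set aside for attention where its gap to the nearest other library, as a share of the group's range in log2 CPM, exceeded Dixon's 95% critical value. This held for 9 of 156 groups (5.77%), and chance gives about 5%. High-dose replicate 1 was the low library for the L-amino-acid oxidase-like gene LOC102183203 (0.788 CPM against 119 to 159 CPM) and for LRRC23 (2.65 CPM against 7.88 to 8.76 CPM). Low-dose replicate 2 was the high library for MFSD2A (14.6 CPM against 3.31 to 4.13 CPM), NOP2 (55.9 CPM against 42.1 to 42.6 CPM) and ALDH18A1 (29.5 CPM against 20.7 to 21.1 CPM), and the low one for ARG2 (3.01 CPM against 3.62 to 3.71 CPM). Low-dose replicate 1 was low for KDELR2 (107 CPM against 124 to 127 CPM), and low-dose replicate 4 was low for SOCS6 (17.9 CPM against 23.4 to 23.7 CPM).

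The ninth was an MHC class II-like locus, LOC102173177, with 0 reads in low-dose replicate 4 (0 CPM) and 35.7 to 54.8 CPM in the other 3 low-dose libraries. It also had 0 reads in all 4 high-dose libraries, where a count of 0 allows up to 3 reads, or 0.169 to 0.386 CPM. In the middle-dose libraries it measured 0.833, 17, 0.293 and 1.02 CPM. A second such locus, LOC102172887, measured 6.98, 1.42, 2.41 and 1.69 CPM at the high dose and 75.6, 63.1, 141 and 5.68 CPM at the low dose, again with low-dose replicate 4 apart from its group. Reads of MHC loci can be shared between near-identical copies, and the source of this pattern was not tested.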

How the results depend on the processing

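The count of genes past the threshold was 0 in edgeR and in every alternative run except 3: it was 55 with DESeq2, 8 in the 8 libraries of the 15991-gene layout, and 0 to 19 when each library was left out, the 19 coming without high-dose replicate 1. The 8 genes were ARG2, CISH, MOGS, TMEM165, XBP1, PRKAA2, LOC102183203 and BHLHA15, all higher, and 6 of them were among those 19. Both fits lack high-dose replicate 1 and share other libraries, so this overlap is not independent. Genes whose groups do not overlap numbered 644, 649 with DESeq2's size factors, 666 by library size alone and 707 without the filter. They numbered 772 to 2310 when each library was left out, where fewer samples raise the count by construction, with 2310 without high-dose replicate 1. The log2 difference in milk protein share ranged from 1.01 to 1.92 over the left-out libraries, and no exact permutation p was under 0.143. The HK2 difference ranged from -0.024 to 1.28 over the left-out libraries and changed sign without high-dose replicate 3; the cause was not tested. Of the genes named with a value, 8 others changed sign, each with a difference smaller than its standard error in the main test. By library size alone ALDOA became -0.18, GZMA -0.21 and PKM -0.23. With limma voom ASL became 0.021, ASS1 0.068 and PKM -0.0072. With milk protein share as a term AXIN2 became 0.79 and GPI 0.043, and with table layout as a term AXIN2 became 0.36 and PKM -0.047. In the 15991-gene layout alone ASS1 was 0.036 and PKM -0.091, and with the 8 high- and low-dose libraries alone GPI was 0.0025. With each library left out in turn, the difference ranged for ASL from -0.49 to 0.012 (other sign without low-dose replicate 3), for ASS1 from -0.23 to 0.091 (other sign without replicate 2 of the high or 3 of the low dose), for AXIN2 from -0.49 to 0.17 (other sign without replicate 4 of the high or 2 of the low dose) and for GPI from -0.14 to 0.068 (other sign without replicate 2 of the high or 1 or 3 of the low dose). It ranged for GZMA from -0.18 to 0.56 (other sign without high-dose replicate 2 or 4), for PDK4 from -0.64 to 0.00077 (other sign without high-dose replicate 1) and for PKM from -0.13 to 0.14 (other sign without replicate 1 of the high or 2 of the low dose). The causes were not tested.

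Replicate numbers were not treated as pairs. The correlations of deviations for same-numbered high- and low-dose libraries were 0.38, -0.15, -0.33 and -0.18. The labels do not say whether a number marks the same goat across doses, and these correlations cannot exclude it. With replicate number as a block, edgeR called 0 genes and 1369 had an unadjusted p under 0.05, against 1560 without it. Depth limits the low genes most: FZD5 rests on 12 to 16 reads in each low-dose library.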
